A study of Mus musculus with 26 samples.

Results

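Noradrenaline released by sympathetic fibres acts on brown fat through adrenergic receptors, and 9 genes of this first step of the signal were followed here: the receptors Adrb1, Adrb3, Adra1a, Adra1d and Adra2a, the adenylyl cyclases Adcy3, Adcy5 and Adcy6, and Gnas, which encodes the stimulatory G protein subunit. They were chosen by name, and all 9 were found among the 50686 genes of the count table. Of the 17286 genes with enough counts to be tested, 8 were members, and Adra2a was not. The data were RNA-seq counts of brown adipose tissue labelled supraclavicular, 1 library per mouse, from 26 male adult C57BL/6J mice. WT30 (n = 7) and KO30 (n = 7) were held at thermoneutrality for 2 weeks, given as 30 °C in the labels and slightly lower in the study's methods, whereas WT5 (n = 5) and KO5 (n = 7) were then moved to 5 °C for 6 h. The KO mice carried floxed alleles of Mllt4, now named Afdn, which encodes Afadin, and Cre driven by the Adiponectin promoter, which is active in white as well as brown adipocytes. The WT mice were control littermates whose Cre status was not given.

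Beta-adrenergic receptors couple to Gs, which activates adenylyl cyclase, and the cAMP produced drives lipolysis and Ucp1 transcription in brown adipocytes. Alpha-1 receptors couple to Gq and calcium release, and alpha-2 receptors couple to Gi and lower cAMP. Receptor mRNA is known to be regulated by the same signal that the receptors carry.

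The targeted gene did not separate the labels at thermoneutrality. Afdn was at 196 ± 21.0 CPM (counts scaled to the same library total with TMM factors, SD, n = 7) in WT30 and 195 ± 27.4 in KO30, a log2 difference of -0.01 (edgeR adjusted p = 0.992). After cold it was at 73.5 ± 4.27 CPM in WT5 (n = 5) and 58.5 ± 4.15 in KO5 (n = 7), a log2 difference of -0.33 (edgeR adjusted p = 0.116). The unadjusted edgeR p of Afdn was 0.000884 there, where 13.4% of all genes had one under 0.05. The mice are therefore called "labelled KO" throughout. The study also measured Afadin protein, and reported that its rise with cold in brown fat was reduced in the knockout mice. It further compared Afadin protein at thermoneutrality, and Mllt4 mRNA by RT-qPCR, between the genotypes. The mRNA counts used here do not measure protein, and recombination of the floxed alleles was not tested. They cover all exons of the gene and every cell type of the tissue, not adipocytes alone. In whole tissue, fewer cells of a type cannot be told apart from less RNA per cell in any value given. Ucp1, the thermogenic uncoupling protein, was higher after cold by 4.02 on the log2 scale in WT mice and 4.34 in mice labelled KO. The difference of these responses, 0.32, did not pass the test (edgeR adjusted p = 0.470). In KO5 against WT5 the log2 difference was 0.04 (edgeR adjusted p = 0.951). By RT-qPCR, the study reported a weaker induction of Ucp1 mRNA by cold in the knockout mice. Total counts ranged from 12705969 to 25732258 per mouse. WT30 mouse 7 stood apart, with 14.3% of its counts from mitochondrial genes against 33.9 to 40.5% in the other WT30 mice. Its summed level of skeletal muscle markers was 5743 CPM, against 7.11 to 1566 in the others. Without it, 5 members were called after cold in WT mice, where Adcy5 was the one lost.

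Per kilobase of exon, the scale on which different genes can be compared, Adcy6 was the highest member at thermoneutrality, at a mean of 29.9 CPM per kb in WT30 and 29.7 in KO30. Adrb3, the beta receptor of mature adipocytes, came next at 15.7 and 17.0 CPM per kb, followed by Adcy3 at 13.9 and 13.6. Adrb3 and Adcy3 overlapped in both groups, and the order of this pair was not the same in every mouse: Adrb3 was the higher in 6 of 7 WT30 mice and 5 of 7 KO30 mice. Adra1a, Adrb1 and Adra1d followed at means between 5.28 and 7.69 CPM per kb, with overlapping ranges for each neighbouring pair. Gnas and Adcy5 were lower, with a limit on the Gnas counts that is given below. Adra2a was the lowest, at 0.0373 CPM per kb in WT30. After cold the order changed. Adcy3 was first in every cold mouse, at 138 CPM per kb in WT5 and 124 in KO5, and Adra1a, at 20.7 in each, had passed Adrb3, at 10.5 and 8.83. The places of Gnas and Adra1a depended on the length used. Per kilobase of the longest transcript, Gnas was at 7.87 CPM per kb in WT30, above Adrb1 at 7.40 and Adra1d at 5.91, and Adra1a in WT5 was at 42.2, above Adcy6 at 32.3.

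**Figure D1:**
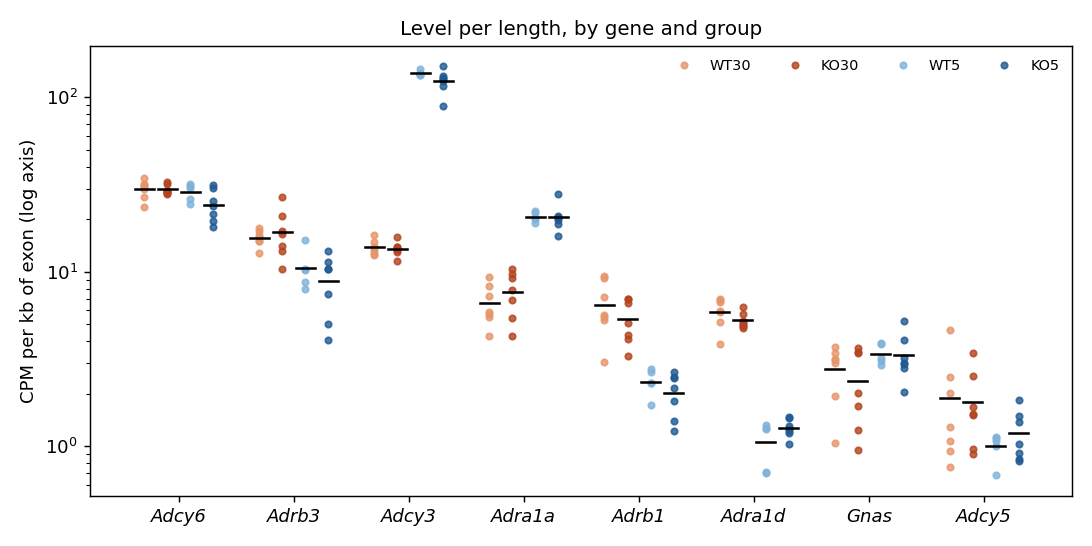
Level of each tested member per length in each mouse (CPM per kb of exon, log axis); points are mice and bars are group means of WT30 (n = 7), KO30 (n = 7), WT5 (n = 5) and KO5 (n = 7). Adcy6 is the highest member at thermoneutrality and Adcy3 after cold.

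Cold changed most of these genes, against a background in which it changed most genes. In WT mice 6 of the 8 tested members passed the threshold (2 higher and 4 lower), and 65% of all genes tested did so, 31.6% higher and 33.4% lower. In mice labelled KO 6 of 8 passed (2 higher and 4 lower), against 68.6% of all genes, 33.7% higher and 34.9% lower. The share of members called was thus close to the background. The median log2 change of the tested members was -0.32 in WT mice and -0.44 in mice labelled KO, beside -0.01 and -0.03 over all genes.

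**Figure D2:**
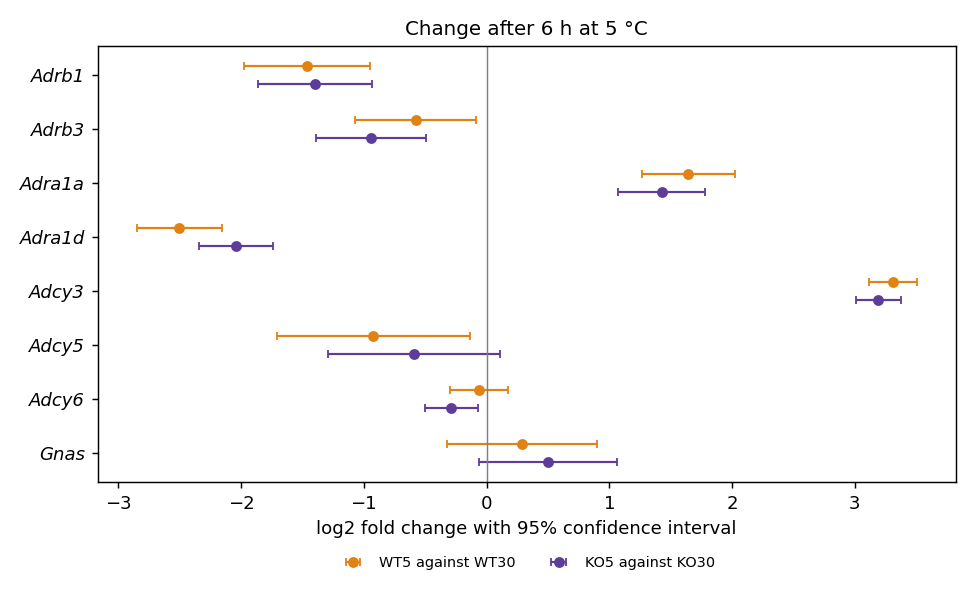
Log2 fold change after 6 h at 5 °C with its 95% confidence interval from the edgeR fit, for WT mice (orange) and mice labelled KO (purple). Adcy3 and Adra1a lie to the right of 0 and Adrb1, Adrb3 and Adra1d to the left in both.

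Adrb1, a beta receptor found on adipocytes and their precursors (chr19:56722199-56733113, GRCm38, + strand), fell. In WT30 it ranged from 10.2 to 31.9 CPM with a median of 19.0, and in the WT5 mice it was at 7.77, 9.34, 5.79, 9.04 and 7.78 CPM. The KO30 mice ranged from 11.2 to 23.7 CPM (median 17.1), and in KO5 from 4.12 to 9.02 (median 7.32). Every cold mouse lay below every thermoneutral mouse of the same label, as it did in either direction for 46.4% of all genes in WT mice and 40.4% in mice labelled KO. The log2 change was -1.46 (SE 0.25, edgeR adjusted p = 1.01e-05) in WT mice, or 2.76-fold lower, and -1.40 (SE 0.22, edgeR adjusted p = 3.96e-06) in mice labelled KO.

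Adrb3 (chr8:27225776-27250616, - strand) also fell, with overlapping groups. In WT30 it ranged from 43.0 to 60.3 CPM (median 53.3), and in the WT5 mice it was at 29.6, 34.6, 34.9, 51.2 and 27.0 CPM. Levels in KO30 ranged from 34.9 to 90.5 CPM (median 55.9), and in KO5 from 13.6 to 44.6 (median 34.9). A single WT5 mouse, at 51.2 CPM, lay inside the WT30 range, and 4 of the KO5 mice lay above the lowest KO30 mouse. The log2 change was -0.58 (SE 0.24, edgeR adjusted p = 0.035) in WT mice and -0.94 (SE 0.22, edgeR adjusted p = 0.000383) in mice labelled KO. With a covariate for the GC content of each library, added after seeing the data, the WT value was -0.41 (edgeR adjusted p = 0.276). The call in WT mice was also lost without WT30 mouse 2 (-0.56), or without WT5 mouse 16 (-0.52), 17 (-0.57), 18 (-0.57) or 21 (-0.49). Of the Adrb3 exons, 24.9% overlap Gm45470 on the opposite strand, and Gm45470 was also lower after cold, at a mean of 16.8 CPM in WT30 and 8.39 in WT5. The library kit marks strand, but the strand setting of the counting was not given in the sources used here, so the part of shared reads in the result was not tested.

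Adrb1 made up 28.6 ± 7.16% (SD, n = 7) of the summed per-length level of Adrb1 and Adrb3 in WT30 and 24.2 ± 3.11% in KO30. After cold it made up 18.7 ± 3.79% in WT5 (n = 5) and 19.6 ± 4.22% in KO5. Between mice of a group, Adrb1 and Adrb3 deviated together (Pearson r = 0.60 over 26 mice after removing group means, a description only). The genes that varied most like Adrb3 among 14245 genes were Kdm5c (r = 0.85), Pparg, the master regulator of adipocyte differentiation (r = 0.75), and Clcn4 (r = 0.74), and Camta1 was the most opposed (r = -0.82). For Adrb1 they were Atf4, a stress-response transcription factor (r = 0.83), Tysnd1 (r = 0.82) and Lzic (r = 0.82), with B230303O12Rik the most opposed (r = -0.75). All of these points share their libraries and depth. The pooled values hid differences between groups. Pparg with Adrb3 was at r = 0.17 in WT30, 0.44 in KO30, 0.86 in WT5 and 0.94 in KO5. Camta1 was at 0.05, -0.68, -0.99 and -0.92 in the same order. Atf4 with Adrb1 was at 0.96, 0.95, -0.01 and 0.69. Of the genes named, only Camta1 and Atf4 changed sign in a group.

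The alpha-1 receptors moved in opposite directions. Adra1a (chr14:66635251-66771168, + strand) ranged from 37.6 to 82.0 CPM in WT30 (median 51.3), and the WT5 mice were at 166, 178, 194, 176 and 189 CPM. The KO30 mice ranged from 37.2 to 90.1 CPM (median 68.7), and in KO5 from 140 to 243 (median 178). The groups did not overlap within either label. The log2 change was 1.64 (SE 0.18, edgeR adjusted p = 1.12e-08), or 3.13-fold, in WT mice and 1.43 (SE 0.17, edgeR adjusted p = 3.55e-08), or 2.69-fold, in mice labelled KO.

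Adra1d (chr2:131545850-131562283, - strand) ranged from 7.29 to 13.2 CPM in WT30 (median 11.3), and the WT5 mice were at 2.37, 2.51, 1.33, 1.35 and 2.42 CPM. Levels in KO30 ranged from 9.04 to 12.0 CPM (median 9.69), and in KO5 from 1.95 to 2.80 (median 2.40). The groups did not overlap within either label. Its log2 change was -2.50 (SE 0.17, edgeR adjusted p = 7.77e-13) in WT mice, or 5.67-fold lower, and -2.04 (SE 0.15, edgeR adjusted p = 1.86e-12) in mice labelled KO. The cold values rest on 26 to 49 counts per mouse. Adra1a thus went from 52.4 ± 8.37% of the summed per-length level of the pair in WT30 (n = 7) to 95.1 ± 1.51% in WT5 (n = 5), and from 58.2 ± 7.79% in KO30 to 94.1 ± 0.938% in KO5. Per length of the longest transcript its share was 68.9% in WT30 and 97.6% in WT5, and 73.7% in KO30 and 97.0% in KO5. Markers of mural cells, which carry alpha-1 receptors in vessels, were also lower after cold, at a median summed level of 860 CPM in WT30 and 652 in WT5, and 865 in KO30 and 609 in KO5. The part of mural cell content in the Adra1d result was not tested.

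Adra2a was nearly undetected. It had 1 to 5 counts per mouse in WT30, 0 to 5 in KO30, 2 to 4 in WT5 and 0 to 5 in KO5, too few for a comparison at this depth.

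**Figure D3:**
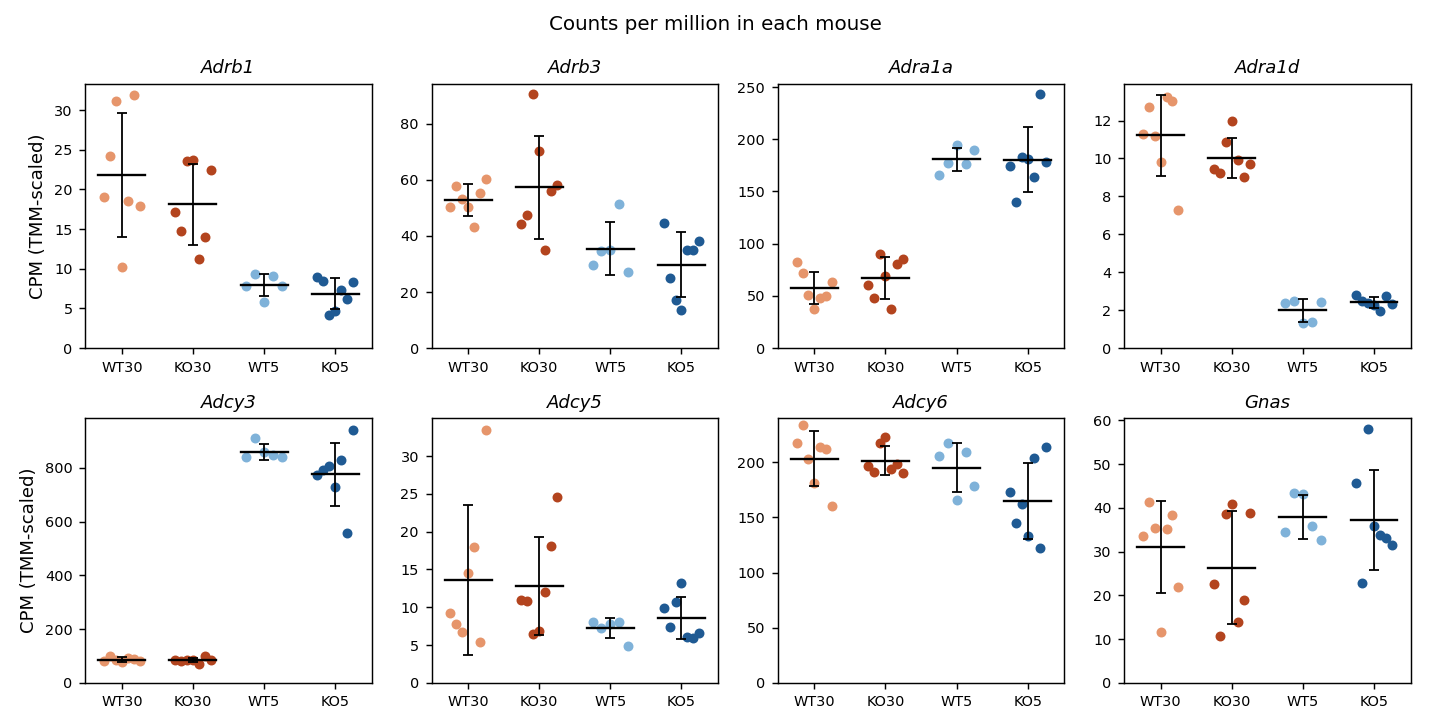
CPM (TMM-scaled, linear axes from 0) of the 8 tested members in each mouse; points are mice, horizontal bars are group means and error bars are SD, for WT30 (n = 7), KO30 (n = 7), WT5 (n = 5) and KO5 (n = 7). Adrb1, Adra1a, Adra1d and Adcy3 separate by temperature without overlap, and Adcy5 in WT30 mouse 7 stands at 33.5 CPM.

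Adcy3, a calcium-regulated cyclase (chr12:4133103-4213525, + strand), showed the largest change of the members after cold. In WT30 it ranged from 78.5 to 101 CPM (median 85.8), and the WT5 mice were at 842, 911, 859, 848 and 840 CPM. The KO30 mice ranged from 72.0 to 99.1 CPM (median 84.9), and in KO5 from 558 to 941 (median 794). No cold mouse came near the thermoneutral range. The log2 change was 3.31 (SE 0.09, edgeR adjusted p = 7.17e-20), or 9.92-fold, in WT mice and 3.19 (SE 0.09, edgeR adjusted p = 4.46e-20), or 9.14-fold, in mice labelled KO. By log2 change Adcy3 ranked 125 of 17286 genes from the top in WT mice and 172 in mice labelled KO. A shorter Adcy3 transcript is known to be induced by cold in brown fat, and counts per gene cannot tell transcripts apart. The per-length levels and shares of Adcy3 use the exons of all its transcripts and are uncertain to that extent. Of the Adcy3 exons, 22.1% overlap Cenpo on the opposite strand, which was at 9.43 CPM in WT30 and 20.4 in WT5 on average. The mean of Adcy3 in the same groups was 86.7 and 860 CPM.

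Adcy6, a cyclase inhibited by calcium, moved little. In WT30 it ranged from 160 to 234 CPM (median 212), and the WT5 mice were at 205, 217, 166, 209 and 178 CPM. Levels in KO30 ranged from 190 to 223 CPM (median 197), and in KO5 from 122 to 214 (median 163). The temperature groups overlapped within both labels. The log2 change was -0.06 (edgeR adjusted p = 0.674) in WT mice, with a 95% confidence interval of -0.29 to 0.18, and -0.29 (SE 0.10, edgeR adjusted p = 0.0161) in mice labelled KO, where it was -0.27 with the GC covariate (edgeR adjusted p = 0.0529). The difference between these responses did not pass the test (-0.23, edgeR adjusted p = 0.478).

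Adcy5, a close relative of Adcy6, was low and variable. In WT30 it was at 5.45 to 33.5 CPM (median 9.21), and in the WT5 mice at 8.01, 7.25, 7.72, 8.11 and 4.90 CPM. The KO30 mice ranged from 6.46 to 24.6 CPM (median 11.0), and in KO5 from 5.90 to 13.2 (median 7.44). The groups overlapped, and WT30 mouse 7 alone was at 33.5 CPM. The log2 change was -0.92 (SE 0.38, edgeR adjusted p = 0.0349) in WT mice and -0.59 (SE 0.34, edgeR adjusted p = 0.122) in mice labelled KO. With the GC covariate the WT value was -0.02 (edgeR adjusted p = 0.978) and that of mice labelled KO -0.17 (edgeR adjusted p = 0.676). With library size alone the value in mice labelled KO was -0.96 (edgeR adjusted p = 0.0207). Without WT30 mouse 7 the WT value was -0.53 (edgeR adjusted p = 0.151), and the call was also lost without WT30 mouse 5 (-0.85) or WT5 mouse 17 (-0.92), 18 (-0.95) or 21 (-0.81). Between mice of a group, Adcy5 varied with the summed level of 8 markers of fibroblasts and preadipocytes (r = 0.88 over 26 mice, a description), which ranged from 471 to 1037 CPM in WT30 and from 558 to 734 in WT5. It also varied with the summed level of 9 skeletal muscle markers (r = 0.48), which ranged from 7.11 to 5743 CPM in WT30 (median 66.0), 0.815 to 5045 in WT5 (median 855), 4.36 to 1591 in KO30 (median 842) and 1.75 to 7883 in KO5 (median 831). Values of similar size were found for markers of macrophages (r = 0.48), endothelium (r = -0.49) and mural cells (r = -0.48). The part of any of these cell types in the Adcy5 result was not tested.

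Summed over all 10 adenylyl cyclase genes per length, the tissue level was 66.7 ± 4.40 CPM per kb in WT30 (n = 7) and 184 ± 7.17 in WT5 (n = 5), and 66.0 ± 3.20 in KO30 and 165 ± 22.8 in KO5. Adcy3 held 20.8 ± 1.22% of that sum in WT30 and 74.9 ± 1.45% in WT5, and 20.5 ± 1.07% in KO30 and 75.0 ± 1.74% in KO5. Adcy6 went from 44.8 to 15.6% in WT mice. Among the cyclase genes that were not members, Adcy9 fell (log2 change -2.02, edgeR adjusted p = 5.05e-14 in WT mice), Adcy4 rose (1.55, edgeR adjusted p = 9.16e-13) and Adcy2 rose from a low level (1.69, edgeR adjusted p = 0.00703). Cap1, a cyclase-associated protein, rose by 0.37.

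**Figure D4:**
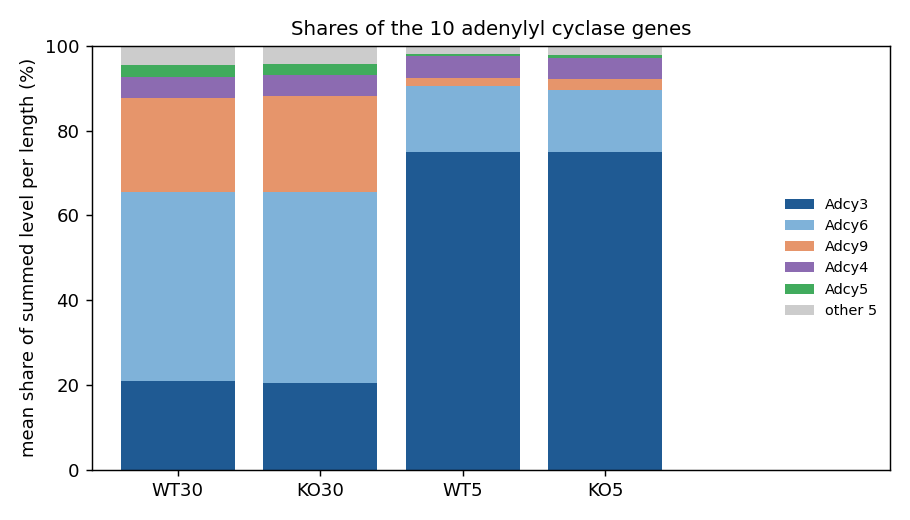
Mean share of Adcy3, Adcy6, Adcy9, Adcy4 and Adcy5, and of the rest together, in the summed level per length of all 10 adenylyl cyclase genes. Shares are in percent, for WT30 (n = 7), KO30 (n = 7), WT5 (n = 5) and KO5 (n = 7). Adcy3 holds 20.8% in WT30 and 74.9% in WT5, and Adcy6 44.8% and 15.6%.

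Gnas ranged from 11.7 to 41.3 CPM in WT30 (median 35.1), and the WT5 mice were at 34.6, 43.4, 43.3, 35.8 and 32.6 CPM. Levels in KO30 ranged from 10.7 to 40.9 CPM (median 22.7), and in KO5 from 22.9 to 58.1 (median 33.7). The groups overlapped. Its log2 change was 0.29 (edgeR adjusted p = 0.4) in WT mice, with a 95% confidence interval of -0.32 to 0.90, and 0.50 (edgeR adjusted p = 0.104) in mice labelled KO, with an interval of -0.06 to 1.06. Gnas counts were low, at 193 to 1008 per mouse, and 22.0% of its exons overlap genes on the opposite strand. The cause of the low counts was not tested. The level of Gnas, its place among the members and its cold change all rest on these counts and are uncertain to that extent.

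The RefSeq promoter table (GRCm38.p6, the build of the deposited counts) held 5 of the 9 members: Adrb1, Adra2a, Adcy3, Adcy5 and Gnas. The cAMP response element TGACGTCA, its core TGACG and the C/EBP site TTGCGCAA were searched on both strands in the 250 bases before each start, and the full element contains the core. Windows with the core made up 17.8% of all 32851, those with the full element 1.55% and those with the C/EBP site 0.164%. These shares were not matched for GC content. Its median was 52.4% over all windows, and the members' windows ran from 56 to 80%. The core was found in Adrb1, Adra2a and 3 of the 4 windows of Gnas, of which 2 overlap and share a match, so that they hold 2 distinct sites, and not in Adcy3 or Adcy5. The windows of Adrb1, a receptor that fell without overlap, and of Adcy3, the cyclase that rose most, are shown, with the core in capitals. Adra1d also fell without overlap but had no window. For Adcy3 window 1 is shown, and window 2 lay at chr12:4133903-4134152. Which start was used after cold was not tested, so neither window need be the promoter of the transcript that rose. Those shown are at chr19:56721867-56722116 for Adrb1 and chr12:4133147-4133396 for Adcy3, both on the + strand.
Adrb1: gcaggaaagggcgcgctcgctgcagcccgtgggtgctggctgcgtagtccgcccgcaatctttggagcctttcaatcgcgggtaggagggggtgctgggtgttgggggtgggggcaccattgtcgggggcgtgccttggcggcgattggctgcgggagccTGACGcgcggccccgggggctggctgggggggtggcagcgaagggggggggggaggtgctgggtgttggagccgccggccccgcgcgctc
Adcy3: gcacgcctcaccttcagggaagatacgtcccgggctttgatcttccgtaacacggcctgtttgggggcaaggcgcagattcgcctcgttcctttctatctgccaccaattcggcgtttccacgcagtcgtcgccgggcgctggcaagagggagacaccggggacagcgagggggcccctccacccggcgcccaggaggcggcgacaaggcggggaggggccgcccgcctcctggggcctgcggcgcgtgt
A match is a description of the letters only. In Adrb1 the core starts 90 bases before the start site.

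The label was compared at each temperature, a question the knockout design poses. At thermoneutrality 0 of 8 tested members passed edgeR's quasi-likelihood test, 0 had an unadjusted p under 0.05 and DESeq2 called 0, beside 0.081% and 7.65% of all genes at the adjusted and the unadjusted threshold of edgeR. After cold 0 of 8 passed edgeR's test, 1 had an unadjusted p under 0.05 and DESeq2 called 0, beside 0.139% and 13.4% of all genes. In the difference of the cold responses 0 of 8 passed edgeR's test, 1 had an unadjusted p under 0.05 and DESeq2 called 0, beside 1.16% and 16.2% of all genes. The gene after cold was Adcy6, with a log2 difference of -0.24 (edgeR adjusted p = 0.352), and the gene in the difference was Adra1d, at 0.46 (SE 0.22, edgeR adjusted p = 0.293).

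The intervals show how large a difference these data leave room for. For Adcy3 the KO30 against WT30 difference was -0.03, with a 95% confidence interval of -0.20 to 0.14, and the KO5 against WT5 difference was -0.15, from -0.33 to 0.04. For Adrb3 the differences were 0.11 (-0.33 to 0.55) at thermoneutrality and -0.25 (-0.74 to 0.24) after cold. For Adrb1 they were -0.27 (-0.71 to 0.17) and -0.20 (-0.72 to 0.31). Adcy5 and Gnas had the widest intervals, reaching from -0.77 to 0.60 and from -0.80 to 0.33 at thermoneutrality. These p-values do not show that the labels were alike.

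**Figure D5:**
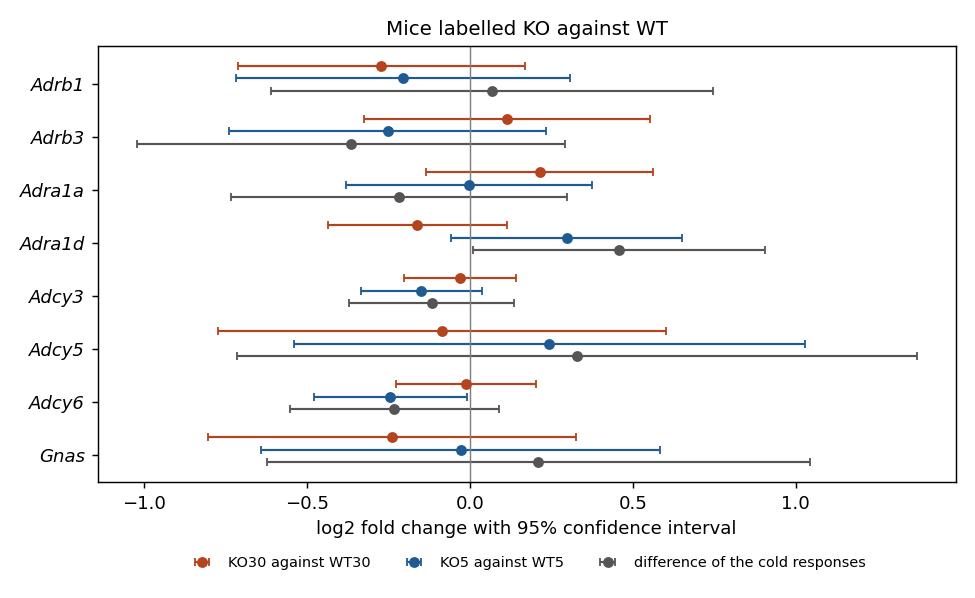
Log2 differences with 95% confidence intervals from the edgeR fit: KO30 against WT30 (red), KO5 against WT5 (blue) and the difference of the cold responses (grey). All but 2 of the intervals, those of Adcy6 after cold and of Adra1d in the difference, include 0.

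Genes around the members in the pathway also changed with cold, to be read against the 65% and 68.6% of all genes called in the 2 labels. Of 17 tested genes of receptor desensitisation, 4 were higher and 9 lower in WT mice (median log2 change -0.39), and 5 and 9 in mice labelled KO. Rgs2, which dampens Gq signalling, changed by -1.87 on the log2 scale in WT mice, and Rgs10 by -1.23. Arrb1, an arrestin that uncouples beta receptors, changed by -1.10, and the receptor kinase Grk6 by -1.04. Of 23 other G protein subunits and chaperones, 6 were higher and 11 lower in WT mice (median -0.29), and 7 and 11 in mice labelled KO. Gng7 was at -1.98, Gnb5 at 1.06, Gng2 at -0.98 and Gna11, a Gq family subunit, at -0.90.

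Of 8 tested Gi-coupled receptors, which oppose cAMP production, 2 were higher and 6 lower in WT mice (median -1.32), and 2 and 5 in mice labelled KO. Hcar1, the lactate receptor, was at -4.18 and Adora1, the adenosine A1 receptor, at -3.07 on the log2 scale in WT mice. Ptger3, a prostaglandin E2 receptor, was at -2.52, whereas Cnr1, a cannabinoid receptor, was at 3.29. Of 14 other Gs-coupled receptors, 5 were higher and 6 lower in either label (median -0.06 in WT mice). Mc2r, the ACTH receptor, was at -1.78 and Gipr, the receptor of the incretin GIP, at -1.53, with Sctr at -1.32 and Adcyap1r1 at -1.28. Of 8 tested genes of catecholamine handling, 2 were higher and 4 lower in WT mice (median -0.09), and 2 and 2 in mice labelled KO. Slc22a3, a catecholamine transporter, was at -2.83, and the degrading enzymes Maob and Maoa at -0.58 and -0.36. In each of the 3 comparisons of labels, 0 genes of these lists passed edgeR's test and 0 passed DESeq2's, and 0 to 3 genes of a list had an unadjusted p under 0.05.

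Among the lists, edgeR called genes between labels in that of nuclear-retained RNA, and DESeq2 called 1 gene each of the mural cell and endothelium markers as well, after cold and in the difference of the cold responses, respectively. Neat1 changed by 2.45 on the log2 scale after cold in WT mice and by 0.84 in mice labelled KO, a difference of -1.61 (edgeR adjusted p = 0.00268), and stood -0.99 apart in KO5 against WT5 (edgeR adjusted p = 0.021). Kcnq1ot1 changed by 1.11 and 0.63, a difference of -0.48 (edgeR adjusted p = 0.0327), and Malat1 by 0.35 in WT mice. The median summed level of the 4 genes of this list was 10064 CPM in WT30, 11063 in KO30, 15201 in WT5 and 12222 in KO5. Within groups it varied with Adrb3 (r = -0.39 over 26 mice) and little with Adcy3 (r = 0.20), and its part in the members' values was not tested.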

How the data were processed

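RNA-seq counts of brown adipose tissue from 26 mice in 4 groups were used, grouped by their labels. Per the submitters' processing notes, alignment to mm10 used STAR 2.5.2b, and the deposited counts per gene came from featureCounts 1.5.2 with no normalization by the authors. The reads were not used here. Symbols came from GENCODE release M21 (GRCm38), and 50376 of 50686 genes matched. Genes were kept with filterByExpr by group, and 17286 were tested in R 4.3.3 with edgeR 4.0.16 (legacy quasi-likelihood test, TMM factors, 1 term per group, Benjamini-Hochberg over all genes tested, threshold 0.05), with limma 3.58.1. DESeq2 1.42.0 was an alternative. The prior count of log2 CPM was 2. Total counts were 12705969 to 25732258 per mouse (median 17237377), and the precision of low genes is limited by counting. Labels do not name litters or days, so p-values measure the spread between these mice. On data simulated for the cold response in WT mice (16820 genes), 190 of 200 genes changed by 1 on the log2 scale were found, with 10 others called. The simulation gave every gene the same dispersion, and the changed genes were few and drawn from those with enough counts. Among tested members in WT30, the SD ran from 9.34% of the mean for Adcy3 to 72.5% for Adcy5. The rate found need therefore not hold for each member.

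The members and gene lists were chosen with earlier results of these data known. All 9 members were named, and from each other list, except marker lists, every gene past the threshold between labels and at most 4 with the largest cold change in WT mice at a mean of at least 1 CPM. For Adrb1 and Adrb3 the 3 most similar genes and the most opposed were named. A few genes that this rule names are not reported here. Levels between genes were compared per kilobase of the union of exons.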

Additional observations from a re-analysis of the deposited data

Results flagged for a closer look

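In 2 of the 32 sets of a member and a group, 1 mouse stood far from the others of its group by Dixon's ratio on log2 CPM, and chance flags about 1 in 20. Adcy3 in WT5 mouse 17 was at 911 CPM, with the next at 859 (ratio 0.722, critical value 0.71 for 5 mice). Adcy5 in WT5 mouse 21 was at 4.90 CPM, with the next at 7.25 (ratio 0.776). Adcy3 remained past the threshold without mouse 17, and Adcy5 did not without mouse 21.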

How the results depend on the processing

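No paired analysis was possible because the groups share no replicate numbers. With DESeq2, other scalings, other filters and only the groups compared, 6 members were called after cold in WT mice and 6 in mice labelled KO (7 with library size alone), and 0 between labels. With the GC score as a covariate, chosen after seeing the data, taken from the same counts and itself different between temperatures, 4 and 5 were called. The cause was not tested. Between labels the number of genes called was not stable. At thermoneutrality (14) it was 42 with DESeq2, 34 with library size alone, 9 without a filter, 24 with the GC covariate and 7 to 93 leaving out 1 mouse (93 without WT30 mouse 7). After cold (24) it was 191, 5, 15 and 61 under the same settings, 45 with at least 10 counts in every mouse, 9 with only the groups compared and 7 to 100 leaving out 1 mouse (100 without KO5 mouse 22). In the difference (200) it was 500 with DESeq2, 27 without a filter, 408 with the GC covariate and 49 to 371 leaving out 1 mouse (371 without WT30 mouse 7, 49 without KO30 mouse 8).

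Signs turned for label differences near 0, none of them called. After cold Adra1a was at 0.0137 with DESeq2, 0.0112 with median-of-ratios factors, 0.00806 without a filter and 0.000257 with the GC covariate. At thermoneutrality Adcy6 was at 0.140 with library size alone, 0.0189 with upper-quartile factors, 0.00306 without a filter, 0.000475 with at least 10 counts and 0.00438 with only the groups compared, Adcy3 at 0.12 with library size alone, and Adcy5 at 0.29 with the GC covariate. In the difference, Adrb1 was at -0.0804 with library size alone and Adcy5 at -0.15 with the GC covariate. Leaving out 1 mouse, values ranged at thermoneutrality from -0.0316 to 0.217 for Adrb3, -0.0543 to 0.0157 for Adcy3, -0.315 to 0.340 for Adcy5 and -0.0448 to 0.0247 for Adcy6, after cold from -0.0889 to 0.0469 for Adra1a and -0.168 to 0.0585 for Gnas, and in the difference from -0.0489 to 0.190 for Adrb1 and -0.0897 to 0.566 for Adcy5. Gnas after cold in mice labelled KO passed without KO30 mouse 11 (0.64, edgeR adjusted p = 0.0452).

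Library size alone moved the median log2 change of all genes to -0.14 in WT mice and -0.34 in mice labelled KO after cold, with 4165 genes higher and 6243 lower, and 3223 and 8384, in place of 5454 and 5779, and 5825 and 6035. Upper-quartile factors gave 4751 and 6579, and 4694 and 7369. Between labels at thermoneutrality 10 genes were higher and 4 lower, but 34 and 0 with library size alone and 13 and 1 with upper-quartile factors. After cold 8 were higher and 16 lower, but 112 and 79 with DESeq2, 4 and 1 with library size alone and 7 and 24 with upper-quartile factors. In the difference, 50 genes were higher and 150 lower, but 262 and 238 with DESeq2, 0 and 278 with library size alone, and 27 and 246 with upper-quartile factors. Low counts limit Adra1d after cold and Adra2a.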
